A study of Saccharomyces cerevisiae with 210 samples.

Results

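The response of the grx2 mutant of Saccharomyces cerevisiae to 6 min of CHP was read from 6 of the 210 arrays of a time series on oxidant stress. The 6 arrays were chosen by their labels alone: genotype grx2 and 6 min after the addition, 3 cultures with CHP at 0.19 mM and 3 control cultures without it. CHP is read here as cumene hydroperoxide, an organic hydroperoxide, although the labels give the abbreviation alone. As references serve the same grx2 cultures at 0 min (before the oxidant), 3 min and 12 min, and the wild type and the grx1 mutant at 6 min, in each case 3 cultures with 0.19 mM CHP and 3 without. All cultures are of the BY4743 background, grown in fermentors to mid-exponential phase. The labels call each strain a mutant without saying how it was made or from how many clones the cultures came, so the p-values measure spread between cultures. That spread is pooled over all 70 groups of the series and is not taken from the grx2 cultures alone.

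Glutaredoxins are small thiol oxidoreductases that draw electrons from glutathione. Grx2 is a dithiol enzyme found in the cytosol and the mitochondria of yeast and is closely related to Grx1, while Grx3, Grx4 and Grx5 are monothiol enzymes that handle iron-sulfur clusters and iron signalling. Hydroperoxides are reduced by peroxiredoxins, which depend on thioredoxin, and by glutathione peroxidases. Oxidation of the transcription factor Yap1 keeps it in the nucleus, where it switches on genes of these systems and of drug efflux.

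Expression is given throughout as the deposited log2 level of 5656 genes, and a response is the mean of the CHP cultures minus the mean of the control cultures at the same time. A gene was called when limma gave it a p-value below 0.05 after Benjamini-Hochberg adjustment across the whole table. SE is the standard error of the response from that fit. At 6 min the medians of the 6 arrays lay between 6.88 and 6.98. The correlation across genes was 0.989 to 0.996 among the CHP arrays, 0.979 to 0.989 among the control arrays and 0.958 to 0.979 between the arms. GRX2 itself stood between 4.23 and 5.09 on these 6 arrays, while its lowest level on the 6 min arrays of all other genotypes was 8.80. Markers of other cell types did not separate the arms: the summed level (log2) of 27 haploid and mating genes was 9.95 to 9.97 in controls and 9.89 to 9.99 with CHP, and that of 29 sporulation genes 9.15 to 9.39 and 9.16 to 9.31.

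Before any CHP was added, 3 of the 6 grx2 cultures stood apart from the other 39 cultures of the series. In control replicates 1 and 2 and in CHP replicate 1, 65 genes lay below and 106 lay above the whole range of the others at 0 min. Of 30 iron uptake genes 20 lay below that range, and of 103 ribosome biogenesis genes 29 lay above it. ARN2, a siderophore transporter, was at 6.02 to 6.11 in these 3 cultures and at 8.74 to 11.40 in the other 39. GRX4, the monothiol glutaredoxin that restrains iron uptake, was at 9.11 to 9.41 in the 3 and at 7.27 to 7.99 in the rest. Since 2 of these cultures are controls and 1 received CHP, the arms are unequal in this respect, and results that rest on them are given below with and without them. Between the arms of grx2 at 0 min limma called 0 of 5656 genes, with 54 at an unadjusted p below 0.05.

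After 6 min of CHP, 348 genes were higher and 266 lower in the grx2 mutant, 10.9% of those tested. The rises were larger than the falls: 145 of the 348 and 26 of the 266 reached 2-fold. The largest rises were in YHK8, SRX1 and FRM2, and the largest falls in YOX1, PCL1 and HLR1. At 315 of the called rises and 233 of the called falls the CHP and control arrays did not overlap, against 26.1% of all genes in either direction. Without the 3 cultures that stood apart, which leaves 2 CHP cultures against 1 control whose spread is taken to be that of the other groups, 216 genes were higher and 106 lower, and 306 of these were among the calls above.

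**Figure D1:**
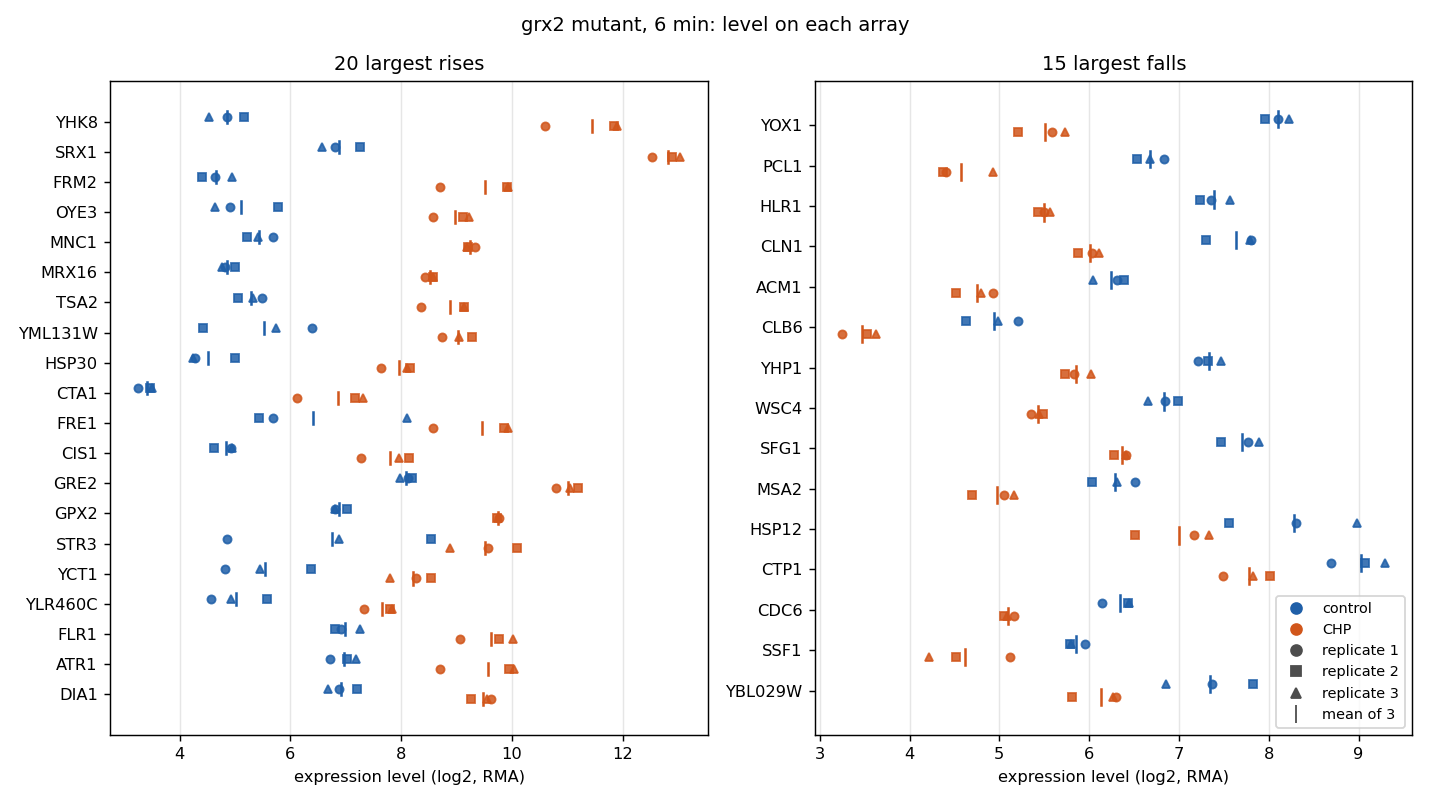
Level (log2) on each of the 6 grx2 arrays at 6 min for the 20 genes that rose most and the 15 that fell most, with control cultures in blue, CHP cultures in orange, symbols for the replicates and bars for the mean of 3. Genes were taken only where the arms do not overlap. YHK8 moves from 4.85 to 11.45 on average, and FRE1, STR3 and HSP12 show the widest spread between control cultures.

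The largest rise of all was in YHK8 (YHR048W), a presumed drug-proton antiporter of the plasma membrane. Control replicates 1 to 3 were at 4.86, 5.16 and 4.53, and CHP replicates 1 to 3 at 10.60, 11.84 and 11.90. The response was 6.60 (SE 0.26, adjusted p 1.33e-52), or 96.8-fold. The lowest CHP culture lay far above the highest control, where arms that do not overlap were a condition for being named among the largest rises. CHP replicate 1 was the lowest of its arm.

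Other efflux genes followed at a distance. FLR1, which exports fluconazole and other drugs, went from 6.92, 6.80 and 7.25 to 9.06, 9.77 and 10.01, a response of 2.62 (SE 0.15). ATR1, an aminotriazole exporter, rose by 2.59 (SE 0.23), and RSB1, a lipid translocator that removes sphingoid bases, by 1.90 (SE 0.38). Of 24 multidrug transporters measured, 8 were higher and 0 lower, against 6.15% of all genes higher and 4.7% lower. The list median was 0.15, against -0.02 for all genes, so most transporters on it changed little while a few rose steeply.

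Peroxide reduction through thioredoxin gave the second strongest member of the response. SRX1, sulfiredoxin, which restores over-oxidized peroxiredoxins, was at 6.80, 7.26 and 6.56 in controls and at 12.52, 12.88 and 13.04 with CHP (response 5.94, SE 0.32, 61.3-fold). TSA2, a stress-induced cytosolic peroxiredoxin, went from 5.48, 5.05 and 5.33 to 8.37, 9.14 and 9.13 (3.59, SE 0.17). The mitochondrial peroxiredoxin gene PRX1 rose by 1.76 (SE 0.18), and TRR1, the cytosolic thioredoxin reductase, by 1.53 (SE 0.11) from controls at 10.85 to 10.91. In all, 5 of 13 thioredoxin and peroxiredoxin genes were higher and 0 lower, with a list median of 0.19, against 6.15% of all genes higher. The arms did not overlap for any of these 4 genes. For SRX1 and TSA2 this was a condition for being named among the largest rises.

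Enzymes that use or make glutathione rose in 7 of 23 cases and fell in 0 (list median 0.16), against 6.15% of all genes higher. GPX2, a glutathione peroxidase that acts on lipid hydroperoxides, stood at 6.80, 7.03 and 6.81 in controls and at 9.76, 9.73 and 9.75 with CHP, a response of 2.87 (SE 0.23) in which the CHP cultures were nearly level. GTT2, a glutathione transferase, rose by 2.37 (SE 0.19). GSH1, the first and rate-limiting enzyme of glutathione synthesis, rose by 1.53 (SE 0.19), and ECM4, an omega-class glutathione transferase, by 1.23 (SE 0.19). With the 3 cultures that stood apart left out, 4 of the 23 were called higher.

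Of the glutaredoxin family itself 0 of 8 genes passed the threshold, against 10.9% of all genes. However, 2 were higher with the arrays centred on their medians, 1 after quantile normalization and 1 without control replicate 1. Besides the deleted gene, GRX1 was at 10.42 ± 0.12 in controls and 10.20 ± 0.18 with CHP (SD, n = 3), and GRX3 at 8.90 ± 0.01 and 8.99 ± 0.17. The closest to a call were GRX6 and GRX5. GRX6, a glutaredoxin of the secretory pathway, was at 6.96, 6.72 and 7.02 in controls and at 7.43, 7.28 and 7.44 with CHP (response 0.48, adjusted p 0.0551). GRX5, the mitochondrial monothiol enzyme, was at 9.49, 9.01 and 9.25 and at 9.67, 9.74 and 9.67 (0.44, adjusted p 0.0917). Their arms do not overlap, which also holds for 26.1% of all genes in either direction, and the differences failed the correction as fitted here. GRX4 followed the cultures and not the arms, with controls at 9.28, 8.94 and 7.45 and CHP cultures at 8.88, 7.84 and 7.76. GRX7 and GRX8 had responses of 0.20 and 0.02.

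Superoxide and hydrogen peroxide enzymes were raised in 4 of 6 cases, and 0 fell (list median 1.21), against 6.15% of all genes higher. CTA1, the peroxisomal catalase, was near the bottom of the scale in controls at 3.24, 3.47 and 3.51 and reached 6.12, 7.17 and 7.31 with CHP (3.46, SE 0.18). CCP1, the mitochondrial cytochrome c peroxidase, rose by 2.16 (SE 0.22), SOD2, the mitochondrial superoxide dismutase, by 1.61 (SE 0.14), and CCS1, the copper chaperone of Sod1, by 0.82 (SE 0.16). All 4 were also called without the 3 cultures that stood apart.

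Reductases of carbonyl, nitro and unsaturated compounds made up a further block. FRM2, a nitroreductase-like protein, went from 4.64, 4.40 and 4.95 to 8.70, 9.91 and 9.93 (4.85, SE 0.23, 28.9-fold). OYE3, an NADPH dehydrogenase of the old yellow enzyme type, went from 4.92, 5.78 and 4.64 to 8.57, 9.11 and 9.23 (3.86, SE 0.22). YML131W, a reductase-like gene, rose by 3.50 (SE 0.23) with controls spread from 4.43 to 6.39, and GRE2, a methylglyoxal reductase, by 2.92 (SE 0.24) with controls at 7.97 to 8.19. YLR460C rose by 2.63 (SE 0.20), but it has close relatives in the genome whose RNA may bind the same probes.

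The Yap1 regulon as a list draws on all of these systems. Of its 36 measured members 26 were higher and 0 lower, against 6.15% of all genes higher, and the median response was 1.52. Leaving out any 1 of the 6 cultures gave 25 or 26, and without the 3 cultures that stood apart 24 were called with a median of 1.62. The cultures that remained enter both medians, and no test set them against those that stood apart. The plot of the gene lists shows the regulon spread from -0.24 to the 5.94 of SRX1.

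**Figure D2:**
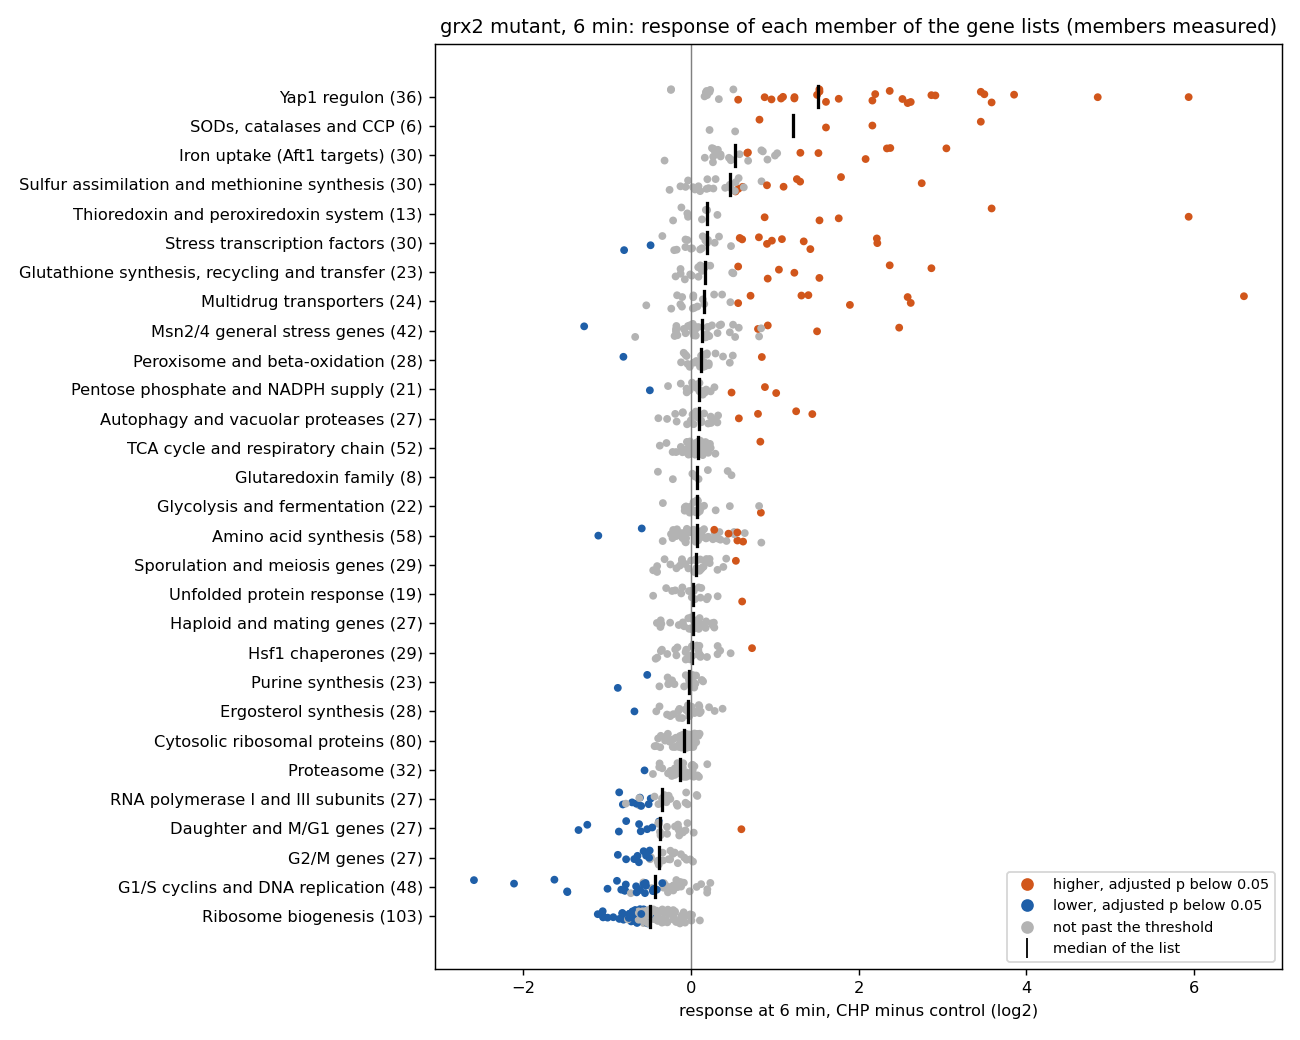
Response at 6 min (log2, CHP minus control) in the grx2 mutant of each measured member of the gene lists with at least 5 such members, one point per gene, orange for called rises, blue for called falls and grey for the rest, with the list median as a black bar and the number of members in brackets. The Yap1 regulon lies farthest to the right with a median of 1.52, and ribosome biogenesis farthest to the left with -0.48.

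Among 30 stress transcription factors 10 were higher and 2 lower (list median 0.19), against 6.15% and 4.7% of all genes. CIN5 and ROX1 led with 2.22 each (SE 0.24 and 0.19). CIN5, a relative of Yap1 also called Yap4, stood at 6.81, 7.75 and 6.45 in controls and at 9.06, 9.22 and 9.40 with CHP. ROX1, a repressor of hypoxic genes, went from 6.41, 6.42 and 6.23 to 8.69, 8.35 and 8.67. AFT2, a regulator of iron genes, rose by 1.42 (SE 0.14) and RPN4, the activator of proteasome genes, by 1.35 (SE 0.15). The arms did not overlap for any of the 4. The lower calls were HSF1 and MSN4, which lie outside the rule for named genes and were singled out after their values were seen. HSF1 had a response of -0.80 in which control replicate 2 stood at 8.20 and the other controls at 7.18 and 7.14. Without the 3 cultures that stood apart, HSF1 (adjusted p 0.187) and MSN4 (adjusted p 0.418) were not called.

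The general stress program was called about as often as all genes at 6 min (10.9%), and protein quality control less often. Of 42 Msn2/4 targets 4 were higher and 1 lower, against 6.15% and 4.7% of all genes, with a median of 0.13. The higher ones numbered 8 without control replicate 1 and 2 without control replicate 2. TMA10, a ribosome-associated stress protein, rose by 2.48 (SE 0.37) from controls at 7.66, 6.57 and 7.54 to 9.51, 9.90 and 9.81, and DDR2 by 1.50 (SE 0.19). HSP12, a membrane-stabilising small heat shock protein, counts among the largest falls at -1.27 (SE 0.38). However, the CHP cultures were already lower by 1.16 at 0 min and by 1.30 at 3 min, and the change from 0 to 6 min within cultures gave -0.11 (adjusted p 0.893). Of 29 Hsf1 chaperone genes 1 was higher, APJ1 by 0.73. HSP30, a heat shock protein of the plasma membrane, rose by 3.46 (SE 0.32), from 4.51 ± 0.43 to 7.97 ± 0.28 (SD, n = 3). Of 32 proteasome genes 0 were higher and 1 was lower, RPT4 with -0.55 (adjusted p 0.0495), a value at the edge of the threshold.

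Sulfur and cysteine supply rose in parts. Of 30 genes of sulfur assimilation and methionine synthesis 9 were higher and 0 lower, with a median of 0.47, against 6.15% of all genes higher. STR3, which splits cystathionine on the way from cysteine to homocysteine, was at 4.86, 8.54 and 6.88 in controls and at 9.56, 10.10 and 8.88 with CHP (2.75, SE 0.37). Its controls differ widely. The lowest CHP culture lies above the highest control, which was a condition for being named among the largest rises. SUL1, a sulfate permease, went from 7.65, 8.65 and 9.27 to 9.98, 10.82 and 10.16 (1.79, SE 0.29), and YCT1, a cysteine transporter, from 4.82, 6.37 and 5.46 to 8.26, 8.54 and 7.81 (2.66, SE 0.30). The count for the list rested on single cultures, with 3 higher without control replicate 1 and 14 without control replicate 2. Left with the other 3 cultures it was 4, STR3, SUL1, MUP3 and MET28, with a list median of 0.28.

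Iron genes need the culture-by-culture view, because the cultures differed in them from the outset. Of 30 Aft1 targets 8 were higher and 0 lower, with a median of 0.53, against 6.15% of all genes higher. FRE1, MRS4 and ISU2 rose within every CHP culture between 0 and 6 min. FRE1, a ferric and cupric reductase of the cell surface, gained 2.61, 2.04 and 2.40 in CHP replicates 1 to 3 while the controls changed by 0.03, -0.99 and 0.38. MRS4, a mitochondrial iron carrier, gained 2.08, 2.32 and 2.13, and ISU2, a scaffold for iron-sulfur clusters, gained 2.09, 2.26 and 2.35. Their responses at 6 min were 3.05 (SE 0.35), 2.34 (SE 0.21) and 2.08 (SE 0.20). All 3 were called in each alternative that was run, and without the 3 cultures that stood apart the response of FRE1 was 1.79.

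TIS11, an mRNA-decay factor of iron shortage, had a call that followed the cultures and 1 CHP culture. Controls at 6 min were at 4.86, 6.23 and 9.64 and CHP cultures at 8.33, 9.77 and 9.77, so that the arms overlap. Within cultures it gained 2.66 in CHP replicate 1 and 0.26 and 0.13 in CHP replicates 2 and 3. The response of 2.38 fell to 1.35 (adjusted p 0.213) without control replicate 1 and to 0.13 (adjusted p 0.972) without the 3 cultures that stood apart. With each culture set against its own 0 min level, 4 of the 30 iron genes were higher, FRE1, MRS4, ISU2 and ISU1, and 3 were lower, SIT1, FET3 and FET4. SIT1, a siderophore transporter, changed by 0.05, -0.59 and -0.34 in the CHP cultures and by 0.32, 0.47 and 0.10 in the controls. ISU1 and the lower 3 were singled out after their values were seen. The count of 8 was 4 without control replicate 1, 5 without CHP replicate 2 or CHP replicate 3, and 20 without control replicate 3. It was 5, with a median of -0.05, without the 3 cultures that stood apart.

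**Figure D3:**
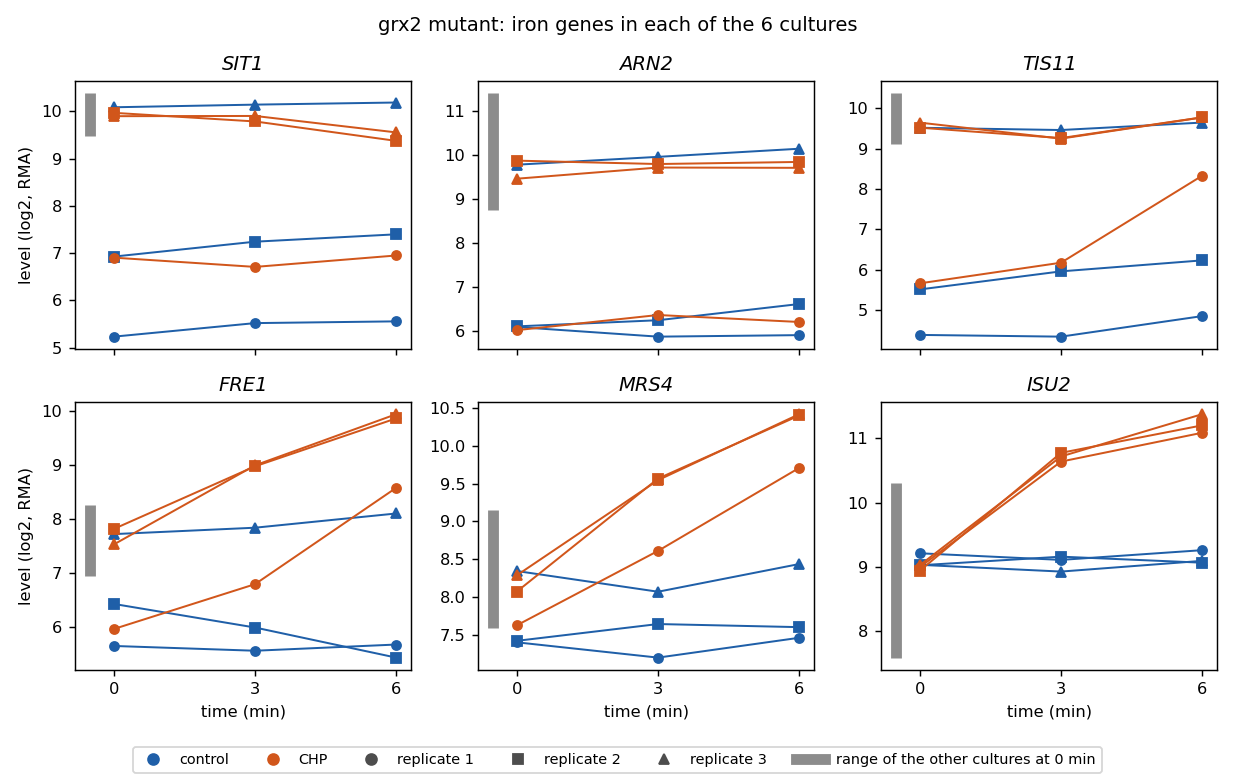
Level (log2) of 6 iron genes at 0, 3 and 6 min in each of the 6 grx2 cultures, with controls in blue, CHP cultures in orange and a line per culture, and in grey the range of the other 39 cultures of the series at 0 min. Control replicates 1 and 2 and CHP replicate 1 start below the grey range for SIT1, ARN2, TIS11 and FRE1, while MRS4, FRE1 and ISU2 climb in all 3 CHP cultures.

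Of 103 genes that build ribosomal subunits 33 were lower and 0 higher, against 4.7% of all genes lower, while 70 were not called. The median was -0.48, against -0.02 for all genes. RPF2, an assembly factor of the large subunit, was at 9.69, 9.95 and 9.38 in controls and at 9.02, 8.30 and 8.37 with CHP (-1.11, SE 0.21). NOG2, a GTPase of large-subunit export, had -1.05 (SE 0.17) and UTP30, a component of the small-subunit pre-ribosome, -1.05 (SE 0.18), in both without overlap between the arms. Among 27 subunits and factors of RNA polymerases I and III 8 were lower and 0 higher, among them RRN3 with -0.81 (SE 0.16). Ribosomal protein genes of the cytosol gave 0 calls among 80, with a median of -0.08.

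These counts moved with single cultures more than those of the Yap1 regulon. Without CHP replicate 2 the lower ribosome biogenesis genes numbered 9, without CHP replicate 3 14, without control replicate 2 18, without control replicate 1 19, and without CHP replicate 1 48. Without the 3 cultures that stood apart, in which 29 of the 103 genes were above all other cultures at 0 min, 11 were lower and the median was -0.53. With each culture set against its own 0 min level, 8 were lower and the median was -0.25. RPF2, NOG2 and UTP30 were called in both. The 8 polymerase genes became 2 without the 3 cultures that stood apart and 1 against each culture's own 0 min level. They numbered 4 without CHP replicate 3 or control replicate 2 and 5 without CHP replicate 2.

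Cell-cycle genes held the largest falls. YOX1, a repressor of M/G1 genes that is itself made in G1, was at 8.10, 7.96 and 8.23 in controls and at 5.59, 5.21 and 5.73 with CHP (-2.59, SE 0.16, adjusted p 6.98e-32), or 6.01-fold lower. PCL1, a G1 cyclin of the kinase Pho85, went from 6.83, 6.53 and 6.68 to 4.41, 4.37 and 4.93 (-2.11, SE 0.23). CLN1, a G1 cyclin of Cdc28, went from 7.81, 7.30 and 7.79 to 6.04, 5.87 and 6.11 (-1.63, SE 0.14). In each the highest CHP culture lay below the lowest control, which was a condition for being named among the largest falls.

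The S-phase cyclin CLB6 fell by 1.48 on the log2 scale, the homeobox repressor YHP1 by 1.47, ACM1, an inhibitor of the anaphase-promoting complex, by 1.50, and MSA2, a co-activator of G1 genes, by 1.31. Of all genes 4.7% were lower and 6.15% higher. Of 48 genes of G1/S and DNA replication 23 were lower and 0 higher, with a median of -0.42. Of 27 G2/M genes 9 were lower and 0 higher (median -0.38), led by the mitotic cyclin CLB2 with -0.87 (SE 0.15) and the kinase CDC5 with -0.77 (SE 0.13). Of 27 daughter-cell and M/G1 genes 9 were lower, led by the transcription factor SFG1 with -1.34 (SE 0.17) and the replication licensing factor CDC6 with -1.24 (SE 0.17). The single higher member was CHS1, a chitin synthase, named after its value was seen. Leaving out the 3 cultures that stood apart gave lower counts of 16 of 48, 7 of 27 and 8 of 27. The G2/M count was 5 without CHP replicate 2, and the M/G1 count fell to 4 when control replicate 3 was left out and to 5 without CHP replicate 1, CHP replicate 2 or control replicate 1. Against each culture's own 0 min level 13 of the 48, 3 of the 27 and 5 of the 27 genes were lower.

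The metabolic lists held scattered calls in both directions. The amino acid list had 5 of 58 members higher and 2 lower, with SER2, the last enzyme of serine synthesis, at -1.10 (SE 0.21). Pentose phosphate and NADPH supply had 3 of 21 higher and 1 lower. ZWF1, glucose-6-phosphate dehydrogenase, was at 10.12, 10.19 and 10.67 in controls and at 10.89, 11.39 and 11.35 with CHP (0.88, SE 0.17). Of 27 genes of autophagy and vacuolar proteases 4 were higher, with ATG5, which acts in autophagosome formation, at 1.45 (SE 0.19) and the kinase ATG1 at 1.26 (SE 0.22). ATG5 stood at 6.63, 6.58 and 6.83 in controls and at 8.09, 8.28 and 8.01 with CHP. Glycolysis had 1 of 22 genes called, the TCA cycle and respiratory chain 1 of 52 (CYC1, cytochrome c, 0.83), ergosterol synthesis 1 of 28 (CYB5, cytochrome b5, -0.67) and the unfolded protein response 1 of 19. Purine synthesis had 2 of 23 genes lower, and peroxisome and beta-oxidation 1 of 28 higher and 1 lower. The shares called in these lists, from glycolysis to the peroxisome, are below the 10.9% of all genes, while those of amino acid synthesis, NADPH supply and autophagy are above it. Without control replicate 3 CYC1 was not called (0.65, adjusted p 0.0893). Of the amino acid genes 0 were higher and 2 lower without the 3 cultures that stood apart, of the NADPH genes 1 was higher, and of the autophagy genes 2 were. Single cultures moved these counts as well: the higher amino acid genes numbered 0 without CHP replicate 2, 1 without CHP replicate 3 or control replicate 1, and 2 without control replicate 2. Without control replicate 2 the higher NADPH genes numbered 1 and the higher autophagy genes 2.

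Several strong rises belong to none of the lists. MNC1 (YBR056W-A) went from 5.68, 5.22 and 5.42 to 9.33, 9.20 and 9.19 (3.80, SE 0.24), and MRX16 (YDR132C) from 4.83, 4.99 and 4.76 to 8.44, 8.57 and 8.57 (3.67, SE 0.17). CIS1 rose by 2.96 (SE 0.23) and DIA1 by 2.56 (SE 0.18). CTP1, the mitochondrial citrate carrier, fell by 1.25 on the log2 scale (SE 0.21). HLR1 fell by 1.89 (SE 0.21). All of these were named as largest rises or falls, for which arms that do not overlap were a condition. WSC4, a cell-wall stress sensor family member, and YBL029W were also among the largest falls (-1.40 and -1.22), but neither was called without the 3 cultures that stood apart (adjusted p 0.0905 and 0.132).

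The 3 CHP cultures did not respond to the same degree. CHP replicate 1 had the lowest CHP level at 244 of the 348 called rises (70.1%), against 35% of all genes, and at 15 of the 20 largest rises. Among the 266 called falls it had the highest CHP level at 178 (66.9%), against 42.7% of all genes. This is also the CHP culture that stood apart before the oxidant, and the part of that in its smaller changes was not tested. Among the exceptions were MNC1, DIA1, GPX2 and ROX1, with CHP replicate 1 the highest of the 3.

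The 6 min sample lies on a steep part of the response. CHP called 75 rises and 9 falls at 3 min, 1.33% and 0.159% of those tested (1.49% in all), and 72 of the 75 and 8 of the 9 were called in the same direction at 6 min. By 12 min the rises numbered 944 and the falls 1349, 16.7% and 23.9% (40.5% in all), and these included 315 of the 348 rises and 236 of the 266 falls of 6 min. The samples of different times come from the same cultures. SRX1 had nearly its full response at 3 min (5.29, against 5.94 at 6 min and 6.01 at 12 min). YHK8 rose by 2.62, 6.60 and 7.20 at the 3 times, and FRM2 by 1.52, 4.85 and 5.83.

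A direct test of the change of response from 6 to 12 min, on the difference within each culture, called 1326 genes, 23.4% of those tested, with 8.43% higher and 15% lower. Of the 348 rises of 6 min, 149 grew further, 27 shrank and 172 had no called change. Of the 266 falls, 136 deepened, 4 shrank and 126 had no called change. Among the genes that gained most were TSA2, from 3.59 to 5.71, OYE3, from 3.86 to 5.83, and OSI1 (YKL071W), from 2.20 to 4.44. RCN1, a regulator of calcineurin, went from -0.06 to 1.87.

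The rises that shrank most were led by YLR297W and ROX1. YLR297W stood at 5.25, 5.95 and 6.08 with CHP at 6 min against controls at 4.02, 4.51 and 3.72. Its response was 1.60 at 3 min, 1.68 at 6 min and -0.20 at 12 min, where it was not called. The response of ROX1 was 1.60, 2.22 and 0.88 at the 3 times, and that of ISF1 0.86, 1.83 and 0.72. RPF2 and the other ribosome biogenesis genes went the opposite way in time, with 0 of 103 called at 3 min, 33 at 6 min and 102 at 12 min. Leaving out control replicate 3 raised the calls at 3 min from 84 to 148, and leaving out the 3 cultures that stood apart gave 47.

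**Figure D4:**
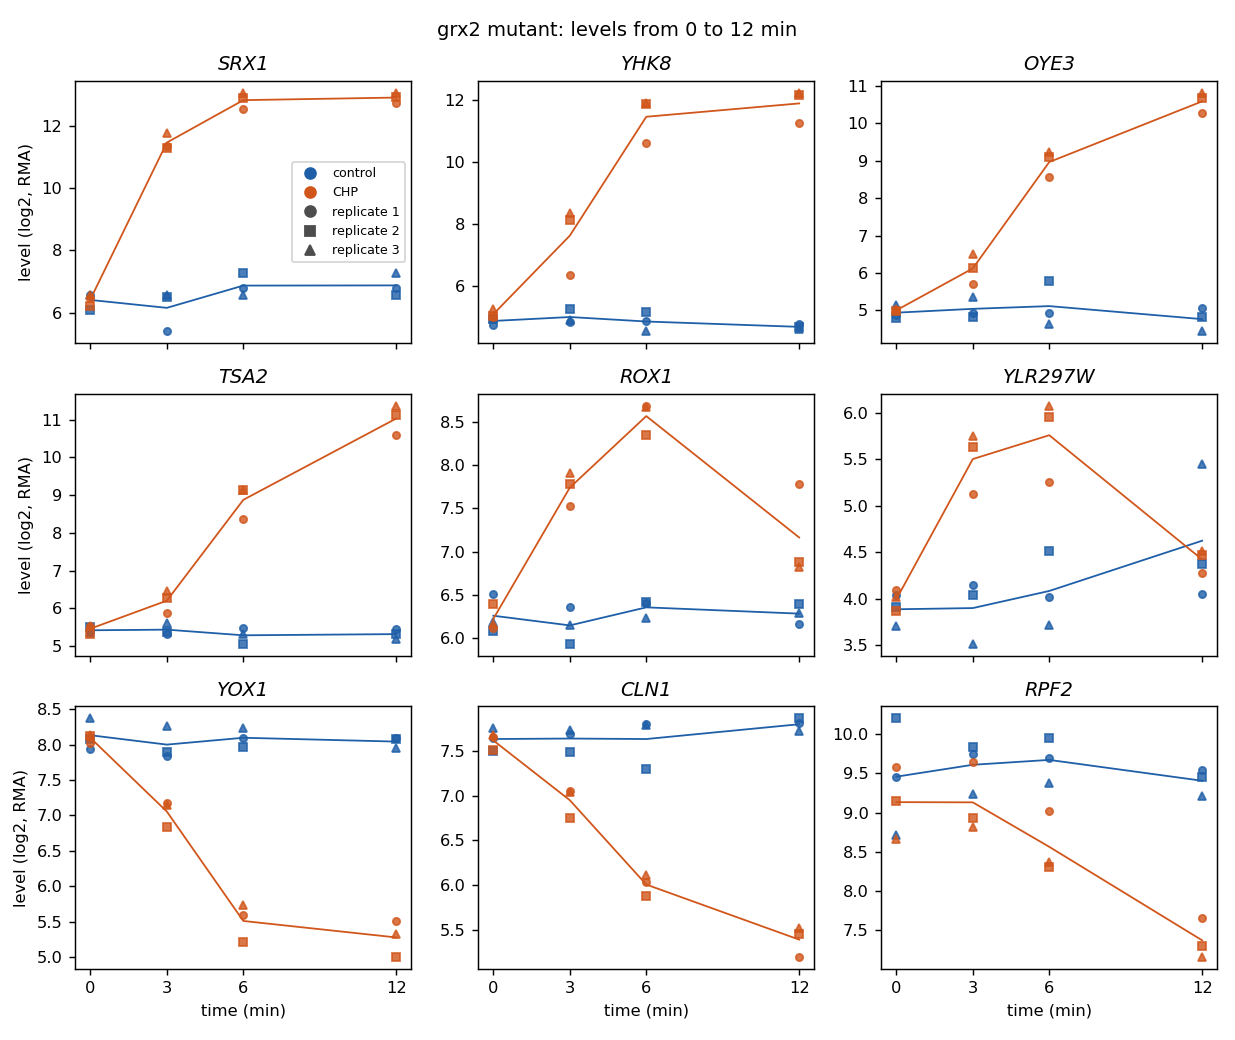
Level (log2) of 9 genes in the grx2 mutant at 0, 3, 6 and 12 min, with control cultures in blue, CHP cultures in orange, symbols for the replicates and lines through the means of 3. SRX1 is near its plateau at 6 min, OYE3 and TSA2 still climb, ROX1 and YLR297W peak at 6 min, and YOX1, CLN1 and RPF2 fall.

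Whether the loss of GRX2 changed the response at 6 min was asked by setting the grx2 response against that of wild type and against that of grx1. These 2 comparisons share the grx2 arrays. In wild type 229 genes were higher and 491 lower (4.05% and 8.68%, or 12.7% in all), with a median over all genes of -0.12. With the arrays centred on their medians the wild-type balance turned, to 327 higher and 211 lower. In grx1 233 genes were higher and 124 lower (4.12% and 2.19%, or 6.31% in all), and 252 and 109 after centring. Of the 348 rises in grx2, 176 were called in wild type and 211 in grx1, and 0 were called in the opposite direction in either. These 176 and 211 are 76.9% and 90.6% of the rises called in wild type and grx1. Of the 266 falls, 121 were called in wild type and 88 in grx1. These overlaps were counted without centring.

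The leading genes had responses of similar size, and their differences were not called. YHK8 rose by 6.78 in wild type, 6.66 in grx1 and 6.60 in grx2, SRX1 by 6.28, 6.56 and 5.94, and the responses of YOX1 were -2.29, -2.60 and -2.59. Of the Yap1 regulon 25, 27 and 26 members were higher in wild type, grx1 and grx2. The median of its responses was 1.22 in wild type, 1.59 in grx1 and 1.52 in grx2. Ribosome biogenesis genes were lower in 11, 4 and 33 cases, but 0 members of any list had a called difference between grx2 and wild type.

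The difference of response itself was called at 8 genes, all with the larger rise in grx2, or 0.141% of those tested, with 571 genes at an unadjusted p below 0.05. MNC1 rose by 1.99 in wild type, 2.66 in grx1 and 3.80 in grx2, a difference to wild type of 1.81 (SE 0.34). CMK2, a calmodulin-dependent protein kinase, rose by 0.72, 1.23 and 2.01 (difference 1.29, SE 0.25). YOR385W, of unknown function, rose by 0.86, 0.86 and 2.06 (difference 1.20, SE 0.23). In these 3 genes the CHP arrays of grx2 were above all CHP arrays of wild type. The same arrays entered the call, so this order is no separate support for it. The CMK2 controls of grx2 (mean 7.14) also lay below those of wild type (mean 7.57), without overlap.

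ARE2, a sterol acyltransferase, had a response of 0.06 in wild type, 0.81 in grx1 and 1.56 in grx2. For MPC3, a mitochondrial pyruvate carrier subunit, and HEM3, an enzyme of haem synthesis, the control level differed too. MPC3 controls averaged 8.26 ± 0.28 in wild type and 7.11 ± 0.79 in grx2 (SD, n = 3), and its CHP cultures 9.17 ± 0.22 and 9.47 ± 0.05. HEM3 controls averaged 6.52 ± 0.20 and 6.01 ± 0.50, and its response was -0.05, 0.18 and 1.27 in wild type, grx1 and grx2. SAS5, of a histone acetyltransferase complex, and IMP2 (YMR035W), of the mitochondrial inner membrane peptidase, had differences of 0.87 and 0.76.

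These differences were less firm than the response. Leaving out 1 of the 12 cultures gave between 3 calls (control replicate 2 of grx2 or control replicate 3 of wild type) and 25 calls (control replicate 3 of grx2). CMK2 and YOR385W were called in all 12 such fits and MNC1 in 11, the exception being without wild-type control replicate 3 (adjusted p 0.0688). Without the 3 cultures that stood apart none of the 8 passed, with values of 1.78 for MNC1 (adjusted p 0.0994), 1.23 for CMK2 (adjusted p 0.0658) and 1.18 for YOR385W (adjusted p 0.0994), and RPM2 was called in their place. Of the other genes, MPC3 was called in 5 of the 12 fits that left out 1 culture, SAS5 in 6, HEM3 in 3, IMP2 in 3 and ARE2 in 11. MPC3, HEM3 and IMP2 were also not called after centring or quantile normalization of the arrays. With each culture set against its own 0 min level, MNC1, CMK2 and YOR385W were called, while ARE2, MPC3, HEM3, SAS5 and IMP2 were not. GRX2 was called there as well, with -1.57. With the spread taken from the arrays of these 2 genotypes alone, 0 genes were called and 376 had an unadjusted p below 0.05.

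Against grx1, 2 genes had a called difference (0.0354% of those tested, 0.0177% in each direction, with 132 at an unadjusted p below 0.05). YOR385W rose by 1.20 more in grx2 (SE 0.24, adjusted p 0.00458). The other was GRX2 itself, whose RNA rose by 1.19 in wild type and by 1.48 in grx1 and which is absent from the grx2 strain (difference to grx1 -1.44). The difference of GRX2 to wild type was -1.14, with an adjusted p of 0.0601. Without control replicate 2 of grx2 or CHP replicate 1 of grx1 YOR385W was not called (the larger adjusted p was 0.181), and without the 3 cultures that stood apart 0 genes were.

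**Figure D5:**
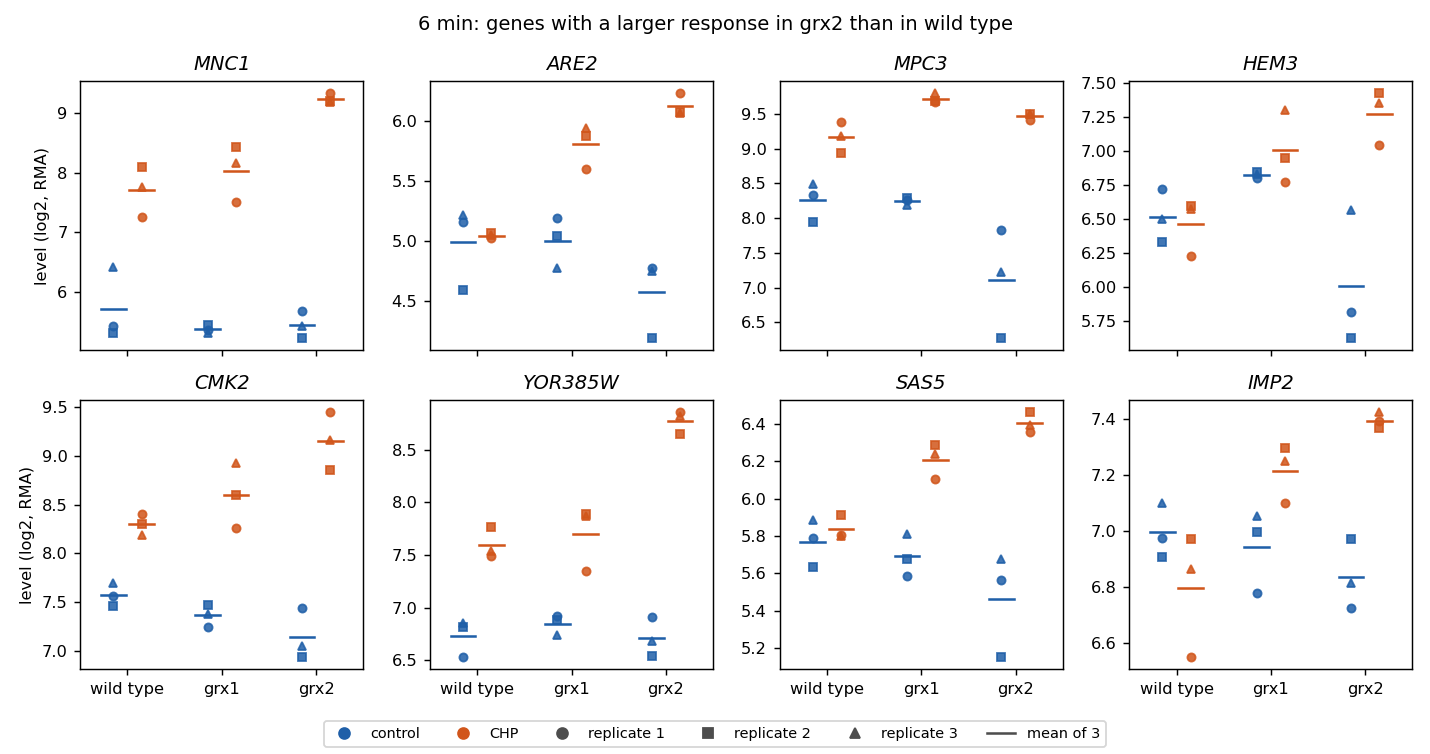
Level (log2) at 6 min in wild type, grx1 and grx2 for the 8 genes whose response was called larger in grx2 than in wild type, with control cultures in blue, CHP cultures in orange, symbols for the replicates and bars for the mean of 3. For MNC1 and YOR385W the 3 CHP cultures of grx2 lie above those of both other strains, and for CMK2 above those of wild type. For MPC3 and HEM3 the grx2 controls lie lowest on average.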

How the data were processed

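Total RNA of 210 samples from 42 yeast cultures was hybridised to Affymetrix Yeast Genome S98 arrays. There were 3 cultures per genotype and treatment, each sampled at all times. The deposited values are log2 levels made by the authors with RMA, per the submitters' processing notes, while the RMA version and settings were not stated there. RMA sets the arrays to a common distribution, so a shift of all genes would not show. Arrays give no read counts, and precision rests on 3 arrays per group.

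Groups were taken from the sample titles. Of 9335 probe sets, 60 were array controls, 6504 named 1 gene in the platform annotation, 328 several and 2443 none, and the probe set with the highest mean was kept for the 315 genes with several, which left 5656 genes. limma 3.58.1 in R 4.3.3 fitted 70 group means to all 210 arrays with 140 residual degrees of freedom. This fit treats the samples of 1 culture as independent. With culture as a random block the correlation within cultures was 0.26. The calls were then 638 for the 6 min response, 11 for the difference to wild type and 2 for that to grx1. Differences of response were contrasts of that fit, and the change from 6 to 12 min was fitted to differences within cultures.

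Named genes were the glutaredoxins, the 20 largest rises and 15 largest falls with arms that do not overlap, up to 4 called members of each list, and the largest called differences between strains or times. The members and lists were chosen with earlier results of these data known. Tested on simulated data, the 6 min response recovered 43% of changes of 0.5 and 95% of changes of 1 (log2). Of 144 simulated calls 6 were false. These rates hold for the simulated data and do not give the power for the real cultures. With the spread from the grx2 arrays alone the real calls fell from 614 to 286. Recovery at that spread, or with cultures that stand apart, was not tested. Same-numbered cultures were checked for pairing, and the correlations of their deviations were 0.21, -0.06 and 0.45, so no pairing was assumed.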

Additional observations from a re-analysis of the deposited data

Results flagged for a closer look

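The direct test of the difference between strains picked out 8 genes whose response at 6 min was larger in grx2 than in wild type. The differences (log2, limma) were 1.8081 for MNC1, 1.5002 for ARE2, 1.4471 for MPC3, 1.3207 for HEM3, 1.2876 for CMK2, 1.1952 for YOR385W, 0.8724 for SAS5 and 0.7592 for IMP2. Against grx1 the same test picked out YOR385W with 1.2022 and the deleted gene GRX2 with -1.4365.

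Probe sets left out of the gene table were called less often than the genes, of which 10.9% were called. Of 2443 probe sets that name no gene 49 passed the threshold, 37 higher and 12 lower (2.01%), and of 328 that name several genes 16 did, 15 higher and 1 lower (4.88%). Between the arms before CHP limma called 0 of 5656 genes.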

How the results depend on the processing

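No called difference of a named gene changed its sign under any alternative that was run, but the median of the iron list went from 0.53 to -0.05 without the 3 cultures that stood apart, and that of the glutaredoxins from 0.07 to -0.05 without CHP replicate 1 and to -0.02 without control replicate 3. The 614 calls of the 6 min response became 286 with the spread from the grx2 arrays alone, 393 with the 6 arrays at 6 min alone, 373 with each culture set against its own 0 min level and, in an alternative chosen after seeing the data, 322 without the 3 cultures that stood apart. Leaving out 1 culture gave 389 to 677. The same alternatives moved the 8 differences to wild type to 0 with the arrays of the compared genotypes alone (376 at an unadjusted p below 0.05). Against 0 min 4 genes were called, of which MNC1, CMK2 and YOR385W belong to the 8 and GRX2 does not. Leaving out 1 culture gave 3 to 25. The 2 differences to grx1 became 0 with the arrays of the compared genotypes alone (126 unadjusted), and 1 to 3 with 1 culture fewer. Without the 3 cultures the calls were 47 at 3 min and 803 for the change from 6 to 12 min. Leaving out 1 culture gave 0 to 3 calls between the arms before CHP, 58 to 148 at 3 min and 362 to 861 in wild type. With replicate number as a block, although no pairing was established, there were 693 calls for the response, 12 for the difference to wild type, which no longer held MPC3 (adjusted p 0.0825) and IMP2 (adjusted p 0.0578), and 2 for that to grx1. Centring the arrays on their medians turned the balance of calls, with the share of higher calls going from 31.8% to 60.8% in wild type, from 41.2% to 53.8% at 12 min and from 36% to 50% for the change from 6 to 12 min. Of the genes named for the response, 68 were called in all alternatives and 39 were lost in at least 1. The search for promoter motifs was not run, since no promoter sequence was used here. RNA below the arrays' background cannot be ranked, and 3 arrays per group limit what small changes can be called.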
